A study of Mus musculus with 32 samples.

Results

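The collagens are the genes whose symbol in the expression table is Col, a number, the letter a and a number, which 43 of its 26607 named genes were. Each encodes 1 chain, and chains wind around each other into a triple helix that is secreted and then assembled outside the cell. They were read in retinas of female C57 BL/6J mice, 21 weeks old by the labels, that spent 37 days in flight in animal enclosure modules, and of ground control mice of the same strain, sex and age kept in the same habitat on the ground. All carcasses were frozen, and the eyes were taken out after thawing, with the retina lifted off in buffer. RNA was sequenced for 9 spaceflight and 7 ground control libraries and DNA methylation for 8 and 8, each from 1 mouse. The source name of the M21 library says flight and its condition label says ground control, and it was counted here as spaceflight. The 7 ground control libraries carry the numbers M31 to M37 in their titles, while their library numbers point to the columns of M31 to M36 and M40 in the study's list of libraries, which were used here. By the labels, left and right retinas were mixed, and the RNA libraries M21, M22, M29, M30, M31 and M33 were left. The methylation libraries of M32 and M33 carry the opposite eye to the RNA columns of those numbers.

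The classes of collagen do different work in the eye. Fibrillar collagens (types I, III and V) form the thick fibrils of sclera, cornea and other connective tissue. The gel of the vitreous is built on fibrils of type II with types IX and XI. Type IV networks and type XVIII hold the basement membranes, among them the inner limiting membrane of the retina and the walls of its vessels. Type VIII, a short-chain collagen made from Col8a1 and Col8a2, forms the hexagonal lattice of Descemet's membrane of the cornea and also occurs in vessel walls. A dissected retina can carry pieces of lens, ciliary body, pigment epithelium or cornea, which make collagens of their own, and in bulk RNA fewer cells of a type and less RNA per cell cannot be told apart.

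The stretches just before the starts of 4 collagen genes and pairs are shown because these genes are described most closely in what follows (Col8a2 and Col8a1 as partner chains, Col4a4 and Col4a3 for their shared start, Col2a1 for its many measured CpGs); they are read from RefSeq on GRCm38.p6, 5′ to 3′ on the strand of the gene, and end at the base before the start. Capitals mark the CpGs that each of the 16 methylation libraries covered with 10 reads or more. The Col8a2 stretch (chr4:126286544-126286793, plus strand) holds 24 CpGs, 1 of them measured; that of Col8a1 (chr16:57754738-57754987, minus strand) holds 10, none of them measured. Col2a1 (chr15:98004725-98004924, minus strand) has 14 CpGs, of which 11 were measured. Between the starts of Col4a4 and Col4a3, which are transcribed away from each other, lie the 71 bases of chr1:82586850-82586920, shown on the plus strand.
Col8a2: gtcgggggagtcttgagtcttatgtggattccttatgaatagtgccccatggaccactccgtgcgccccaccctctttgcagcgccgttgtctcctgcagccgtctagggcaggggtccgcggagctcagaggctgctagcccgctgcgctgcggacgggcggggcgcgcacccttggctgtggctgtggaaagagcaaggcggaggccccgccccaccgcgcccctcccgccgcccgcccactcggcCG
Col8a1: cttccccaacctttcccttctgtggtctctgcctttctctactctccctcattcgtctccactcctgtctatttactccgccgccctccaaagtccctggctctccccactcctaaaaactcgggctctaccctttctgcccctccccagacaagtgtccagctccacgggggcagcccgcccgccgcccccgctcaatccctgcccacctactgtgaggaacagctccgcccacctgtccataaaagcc
Col2a1: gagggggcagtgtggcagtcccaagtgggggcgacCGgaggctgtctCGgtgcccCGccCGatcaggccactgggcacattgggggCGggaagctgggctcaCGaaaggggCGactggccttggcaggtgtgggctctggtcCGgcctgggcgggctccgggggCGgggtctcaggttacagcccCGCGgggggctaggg
Col4a3 and Col4a4: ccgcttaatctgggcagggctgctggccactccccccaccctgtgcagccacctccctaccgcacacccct
The GC content of these stretches was 70% for Col8a2, 60.8% for Col8a1, 73.5% for Col2a1 and 69.0% for the bases between Col4a4 and Col4a3. In windows of 300 bases around 38 RefSeq starts of 35 collagen genes (250 bases before and 50 after), searched on both strands, the letters GGGCGG were present in 23 (60.5%), against 35.7% of 32851 such windows of all genes. TATAAA was present in 5 (13.2%, against 13.6%), those of Col10a1, Col11a2, Col13a1, Col17a1 and Col3a1.

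Expression values are FPKM, the fragments of a gene scaled to its length and to the size of the library, so levels can be compared between genes. The tissue label was checked on rod genes, and 7 of them, among them Sag, the arrestin of rods, summed to between 9656 and 19870 FPKM in every library. Collagens were a small part of this RNA, between 0.00735% and 0.0542% of the summed FPKM of a library. Of the 43 members, 29 had a mean of at least 1 FPKM over the 16 libraries and were tested, and 14 did not. The highest means belonged to Col8a1 (34.8 FPKM), Col18a1 (32.6 FPKM), Col8a2 (24.5 FPKM), Col23a1 (18.6 FPKM), Col4a1 (17.2 FPKM), Col4a3 (15.6 FPKM), Col4a2 (14.5 FPKM) and Col9a3 (13.4 FPKM), the 8 members above 10 FPKM. The 14 low members had means of 0.0265 to 0.713 FPKM and include Col15a1, Col16a1, Col14a1, Col11a2 and the type VI chains Col6a4, Col6a5 and Col6a6. Among these, Col28a1 was listed at 0 in 3 libraries, and Col10a1 reached 4.90 FPKM in the spaceflight library M21 with no other library above 0.776 FPKM.

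Collagens differed in how far they varied between retinas. Over the 16 libraries the highest level was under 3 times the lowest for 3 tested members, Col2a1 (2.34-fold), Col19a1 (2.33-fold) and Col25a1 (2.75-fold), and 10 times the lowest or more for 13. The widest spreads were those of Col3a1 (198-fold), Col17a1 (135-fold), Col1a1 (66.4-fold), Col6a3 (50.5-fold) and Col4a1 (37.0-fold). Without M21, M22, M23 and M31, the libraries that stood apart, 5 members rather than 13 spanned 10 times or more; Col4a1 then ranged over 3.20-fold, but Col3a1 still over 31.002-fold, Col1a1 over 25.2-fold and Col17a1 over 14.5-fold. The map of levels by retina shows both kinds of spread.

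**Figure D1:**
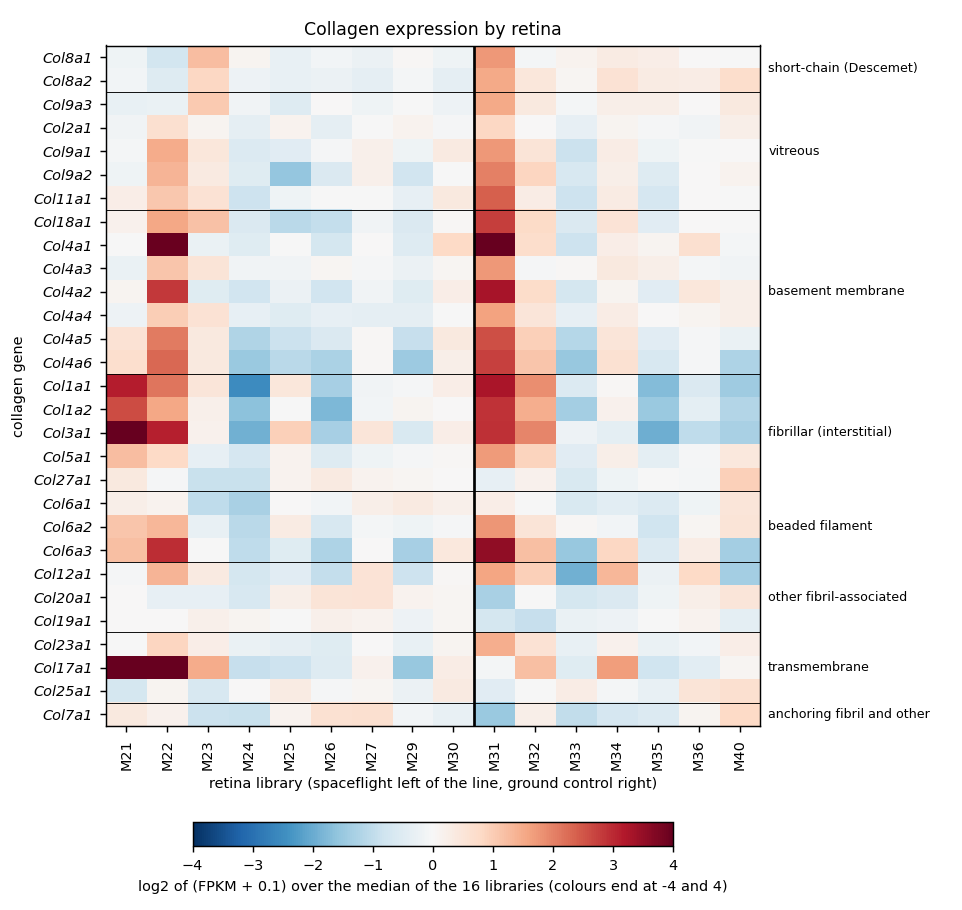
Levels of the 29 tested collagens in each of the 16 RNA libraries, as log2 of FPKM plus 0.1 over the median of the gene (colour), with genes grouped by class and spaceflight libraries left of the line. The ground control library M31 holds the highest level of 21 genes, and the spaceflight library M22 stands out for the type IV chains.

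Libraries M21, M22, M23 and M31 stood apart from the other 12. Of the 29 tested members, 23 had their highest level in one of these 4: 21 in M31, and Col3a1 and Col17a1 in M21. Against the median of the other 12 libraries, 21 members were at least 2 times higher in M31, 18 in M22, 8 in M21 and 5 in M23. The same libraries were high in genes of neighbouring tissues. All 8 lens genes listed are in the table, and they summed to 28274 FPKM in M22 and 41359 FPKM in M31 against 1.98 to 1519 FPKM elsewhere. The 7 genes of corneal and basal epithelium summed to 1941 FPKM in M21 and 7.31 to 417 FPKM elsewhere, with Krt5 and Krt14 listed at 0 in at least 1 library. The 7 genes of the pigment epithelium summed to 5715 FPKM in M23 and 8415 FPKM in M31 against 909 to 3221 FPKM in the others. Ciliary epithelium genes (3, Optc among them) summed to 244 FPKM in M22, 438 FPKM in M31 and 6.22 to 95.1 FPKM in the others. The 8 fibroblast genes summed to 20.9 to 231 FPKM after spaceflight and 20.3 to 403 FPKM in ground controls, with Dpt, Mfap5 and Twist2 listed at 0 in at least 1 library. M31 was also high in genes of Muller glia, cells of the retina itself. These 7 genes summed to 5348 FPKM in M31 and at most 3095 FPKM elsewhere. M31 was highest too for melanocyte genes (1080 FPKM) and for pericyte and smooth muscle genes (298 FPKM). It was not highest for endothelium genes (71.5 FPKM, with 77.6 FPKM in M32). What part these tissues and cells had in any collagen result was not tested. The spaceflight comparison is therefore also given without M31 or without the 4 libraries.

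Col4a1, a chain of the ubiquitous type IV network, was highest in M22 and M31, the libraries highest in lens, ciliary epithelium and fibroblast genes. It stood at 85.1 FPKM in M22 and 111 FPKM in M31, and at 3.004 to 9.62 FPKM elsewhere. Col4a2, its partner chain, reached 54.7 FPKM in M22 and 76.1 FPKM in M31. Col17a1, the hemidesmosomal collagen of basal epithelial cells, stood at 20.6 FPKM in M21 and 12.1 FPKM in M22, where no ground control was above 2.20 FPKM. Col18a1, the precursor of endostatin, was at 149 FPKM in M31, 63.7 FPKM in M22 and 49.3 FPKM in M23. Col8a1 was highest in M31 and M23, the libraries high in pigment epithelium genes, at 95.3 and 68.3 FPKM. The plot of collagens against marker genes sets these values side by side.

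**Figure D2:**
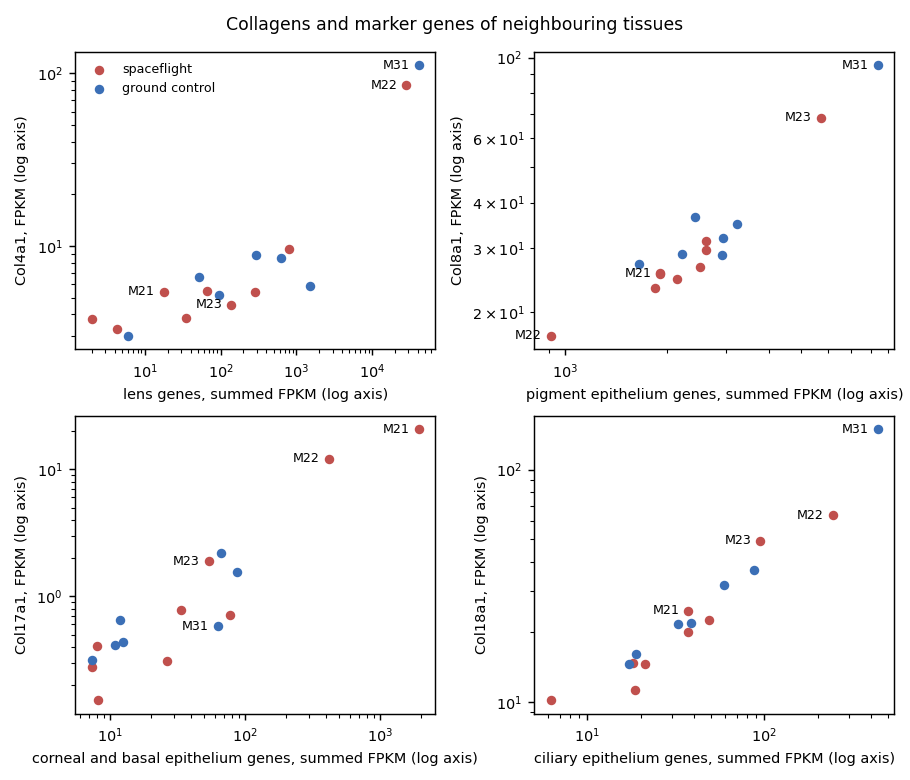
Levels of Col4a1, Col8a1, Col17a1 and Col18a1 (FPKM, log axis) against the summed level of lens, pigment epithelium, corneal and basal epithelium, and ciliary epithelium genes (FPKM, log axis), 1 point per library. M22 and M31 lie at the upper right of the lens and ciliary panels, M23 and M31 of the pigment epithelium panel and M21 of the basal epithelium panel.

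Ratios were taken between chains that share a helix. The ratio of Col4a3 to Col4a4 FPKM lay between 1.42 and 2.74 in all 16 libraries, although each chain varied about 4-fold (4.002-fold and 4.37-fold). Col8a1 over Col8a2 lay between 0.875 and 1.89. For Col1a1 over Col1a2, which join 2 to 1 in type I collagen, the range was 0.831 to 2.96 while Col1a1 itself ranged over 66.4-fold. Col4a1 over Col4a2 was 0.571 to 1.06 in 14 libraries and 1.56 and 1.46 in M22 and M31. Some pairs varied more in their ratio than 1 of their chains did in level. Col6a1 over Col6a2 ranged from 1.09 to 4.82, while Col6a1 itself spanned 3.61-fold. Col9a3 over Col9a1 ranged from 0.6005 to 3.54, while Col9a3 spanned 4.11-fold. The remaining pairs varied less than their chains. Col4a5 over Col4a6 ranged from 1.25 to 3.19 (chains 15.4-fold and 22.9-fold), and Col9a1 over Col9a2 from 1.38 to 3.96 (chains 6.11-fold and 12.9-fold).

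The main question of the design is whether collagens differ between retinas of flown mice and ground controls. No collagen passed the call, which asked for a fold change of 1.2 or more together with p values of at most 0.05 before and 0.3 after Benjamini-Hochberg adjustment in limma over all 14308 genes with a mean of at least 1 FPKM. Of all genes tested, 21 (0.147%) were called, 14 lower after spaceflight (0.0978%) and 7 higher (0.0489%), a number that ranged from 0 to 1366 with each library left out. At the same fold and an unadjusted p of at most 0.05, 2 of 29 collagens passed, Col8a2 lower and Col19a1 higher, or 6.9%, where 7.3% of all genes did (2.93% lower and 4.37% higher), so the share of collagens was near that of all genes. In direction, 21 of the 29 were lower after spaceflight and 8 higher, with a median log2 difference of -0.24 against -0.00052 over all genes. The direction depended on which libraries were compared. Without the ground control M31, 12 were lower and 17 higher, and the median was 0.04. Without M21, M22, M23 and M31, 22 of 26 tested were lower and 4 higher, with a median of -0.25. No member was free of overlap between the groups over the 16 libraries. The share of all genes free of overlap was not counted here.

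**Figure D3:**
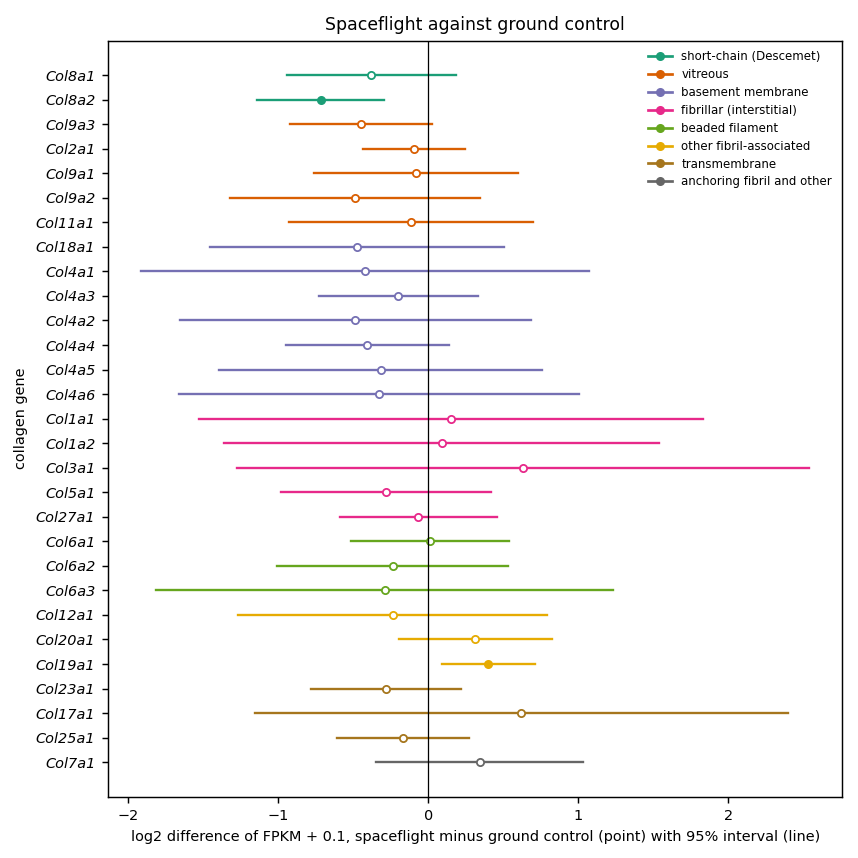
Log2 difference of FPKM plus 0.1 between spaceflight (n = 9) and ground control (n = 7) for the 29 tested collagens (points, filled where the fold was at least 1.2 and the unadjusted p at most 0.05), with 95% intervals from limma (lines) and colours by class. The intervals of Col8a2 and Col19a1 alone leave out 0, and those of Col3a1, Col17a1 and Col1a1 are the widest.

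Among the short-chain collagens, Col8a2 had the smallest p of any collagen. Its level in the 9 spaceflight retinas had a lowest value of 14.04, a median of 17.1 and a highest value of 36.2 FPKM, and in the 7 ground controls 21.1, 27.9 and 58.3 FPKM. Of the 9 spaceflight retinas 8 lay below every ground control, and the exception was M23. The means were 19.0 ± 6.65 (SD, n = 9) and 31.6 ± 12.4 FPKM (SD, n = 7). The log2 difference was -0.72 (SE 0.20, 95% interval -1.14 to -0.29), a level 1.64-fold lower after spaceflight (unadjusted p = 0.00233, adjusted p = 0.353 in limma). That misses the call. With the 4 libraries that stood apart left out (6 against 6), spaceflight levels were 15.8 to 19.2 FPKM and ground control levels 21.1 to 32.8 FPKM. These do not overlap, but M23 is 1 of the 4, so this follows from leaving it out and is no separate evidence. In the 6 against 6 the log2 difference was -0.66 with an adjusted p of 0.208 in limma, which passes the call. In those 12 libraries the pigment epithelium genes summed to 1842 to 2618 FPKM after spaceflight and 1652 to 3221 FPKM in ground controls, which overlap, with medians of 2328 and 2671 FPKM. Over all 16 libraries the medians of this sum were 2142 and 2911 FPKM, and the 6 tested genes of the list all had a log2 difference below 0 (median -0.39). What part the pigment epithelium had in the Col8a2 difference was not tested.

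Its partner Col8a1 had lowest, median and highest levels of 17.2, 25.7 and 68.3 FPKM after spaceflight and 27.1, 31.96 and 95.3 FPKM in ground controls. Here 6 of 9 spaceflight retinas lay below every ground control, and the log2 difference was -0.38 (SE 0.27, adjusted p = 0.598 in limma). It was -0.15 without M31 and -0.22 without the 4 libraries. Col8a1 over Col8a2 had a median of 1.56 after spaceflight and 1.204 in ground controls, with overlapping ranges of 1.23 to 1.89 and 0.875 to 1.63. Summed over the class, 8 of 9 spaceflight retinas were below the lowest ground control. The class sums were 31.6, 44.0 and 104.6 FPKM (lowest, median, highest) after spaceflight and 53.2, 60.4 and 154 FPKM in ground controls, and M23 was again the exception.

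**Figure D4:**
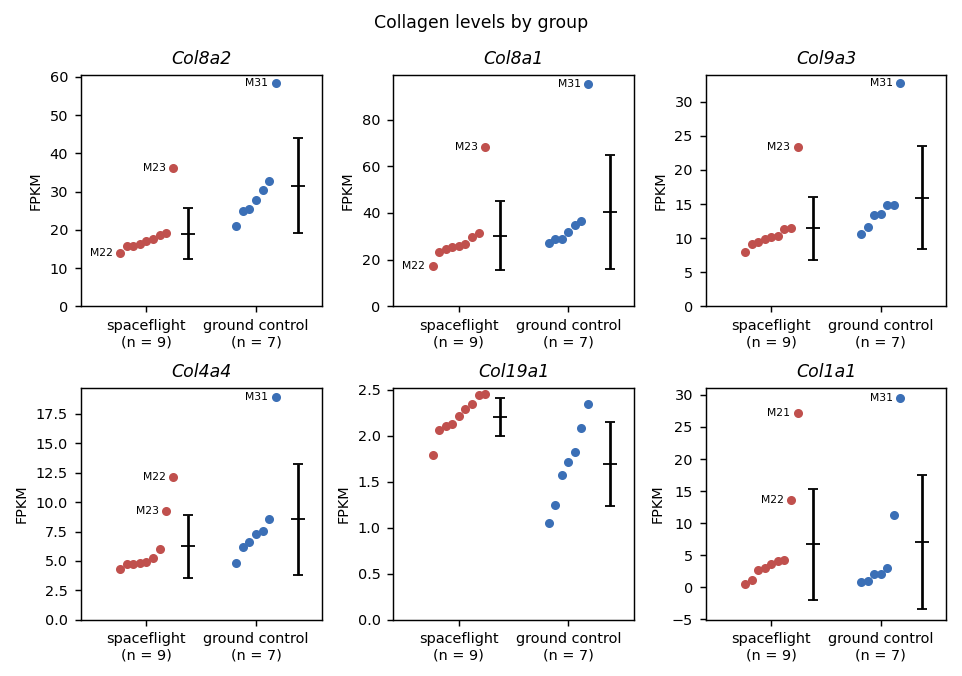
Level of 6 collagens in each retina (points, FPKM) with the mean and SD of the group (bars) for spaceflight (n = 9) and ground control (n = 7). For Col8a2, all spaceflight retinas but M23 lie below the lowest ground control, at 21.1 FPKM. For Col1a1, M21, M22 and M31 set the mean and the SD of their groups.

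All 5 vitreous collagens were tested and all had a log2 difference below 0 (median -0.11), with none past the call or an unadjusted p of 0.05; without M31, 3 were above 0 and 2 below, and without the 4 libraries all 5 were below. Col9a3, a chain of the fibril-associated type IX, had lowest, median and highest levels of 7.95, 10.1 and 23.4 FPKM after spaceflight and 10.7, 13.5 and 32.7 FPKM in ground controls. The groups overlap, with 6 of 9 spaceflight retinas below every ground control. Its log2 difference was -0.45 (SE 0.22, adjusted p = 0.486 in limma), -0.26 without M31, and without the 4 libraries -0.37 with an adjusted p of 0.29, which passes the call. Col2a1, the main fibril chain of the vitreous, was among the steadiest collagens of this tissue. It stood at 5.42 to 11.1 FPKM (median 6.91) after spaceflight and 5.57 to 12.7 FPKM (median 7.16) in ground controls. Its log2 difference was -0.09 (SE 0.16, 95% interval -0.43 to 0.25), and 0.03 without M31. The other vitreous chains differed by -0.49 (Col9a2), -0.11 (Col11a1) and -0.08 (Col9a1) on the log2 scale.

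The 7 tested basement membrane collagens were also all below 0, with a median log2 difference of -0.40 and none at an unadjusted p of 0.05. Without M31 they split into 4 above 0 and 3 below (median 0.04), and without the 4 libraries all 7 were below (median -0.45). Col4a4, which joins Col4a3 and Col4a5 in a network of specialised basement membranes, had lowest, median and highest levels of 4.33, 4.90 and 12.1 FPKM after spaceflight and 4.81, 7.28 and 19.0 FPKM in ground controls. Only 4 of 9 spaceflight retinas were below every ground control. The log2 difference was -0.40 (SE 0.26, adjusted p = 0.561 in limma), -0.19 without M31 and -0.45 without the 4 libraries, where the adjusted p was 0.29 and the call was passed. Col4a3, read from the other strand of the same locus, stood at 10.5 to 27.1 FPKM after spaceflight and 11.4 to 41.9 FPKM in ground controls, with a log2 difference of -0.20 (SE 0.25).

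Col18a1 had lowest, median and highest levels of 10.2, 19.9 and 63.7 FPKM after spaceflight and 14.5, 21.8 and 149 FPKM in ground controls, and the log2 difference was -0.48 (SE 0.46), which came to -0.09 without M31 and -0.59 without the 4 libraries (adjusted p = 0.31 in limma). For Col4a1 these were 3.29, 5.40 and 85.1 FPKM against 3.004, 6.56 and 111 FPKM, which overlap almost wholly. Its log2 difference of -0.42 (SE 0.71) turned to 0.18 without M31 and was -0.28 without the 4 libraries. Col4a2, Col4a5 and Col4a6 had differences of -0.49, -0.32 and -0.33 with standard errors of 0.55, 0.51 and 0.63.

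Fibrillar collagens showed no common direction over all 16 libraries. Of 5 tested, 3 were higher and 2 lower, with a median log2 difference of 0.09. The counts were the same without M31 (median 0.57), while without the 4 libraries all 4 tested were lower (median -0.13). Col1a1, the main chain of type I collagen, had lowest, median and highest levels of 0.444, 3.60 and 27.2 FPKM after spaceflight and 0.822, 2.01 and 29.5 FPKM in ground controls. The highest values were those of M21 and M31, and the groups overlap over nearly their whole range. The log2 difference was 0.15 (SE 0.80, 95% interval -1.52 to 1.83, adjusted p = 0.952 in limma). Its direction turned when M21 was read as ground control (-0.58) and without the 4 libraries (-0.15). Col1a2 stood at 0.472, 1.92 and 11.9 FPKM against 0.599, 1.41 and 14.5 FPKM, with a difference of 0.09 (SE 0.69). Col3a1 differed by 0.63 with a standard error of 0.90, and Col5a1 and Col27a1 by -0.28 and -0.06.

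In the other classes Col19a1, a collagen of basement membrane zones, was the member at an unadjusted p below 0.05. Its lowest, median and highest levels were 1.80, 2.22 and 2.45 FPKM after spaceflight and 1.05, 1.71 and 2.35 FPKM in ground controls. The groups overlap, with 2 of 9 spaceflight retinas above every ground control. The log2 difference was 0.40 (SE 0.15, unadjusted p = 0.0146, adjusted p = 0.396 in limma), a level 1.32-fold higher. Without the 4 libraries the difference was 0.33 (SE 0.17), with an adjusted p of 0.36 in limma, which misses the call. It passed the call without M31 (0.34, adjusted p = 0.287 in limma) and without M35 (0.45, adjusted p = 0.281 in limma). Col20a1 stood at 1.39, 2.40 and 3.31 FPKM against 0.863, 1.96 and 3.16 FPKM (log2 difference 0.32, SE 0.24, and 0.15 without M31). Col12a1, which decorates type I fibrils, stood at 2.45, 4.74 and 12.7 FPKM against 1.21, 8.60 and 14.7 FPKM (-0.24, SE 0.49), with ground controls the more spread. Its difference was -0.0013 without M31 and -0.32 without the 4 libraries.

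Col23a1, a transmembrane collagen that can be shed from the cell surface, was the fourth most abundant collagen. It stood at 11.4, 16.1 and 29.4 FPKM after spaceflight and 13.2, 18.3 and 44.6 FPKM in ground controls, with a log2 difference of -0.28 (SE 0.24) that was -0.08 without M31 and -0.28 without the 4 libraries. Col17a1 stood at 0.152, 0.711 and 20.6 FPKM against 0.315, 0.582 and 2.20 FPKM, with a difference of 0.62 (SE 0.84), and M21 and M22 held its highest levels. The difference was 0.11 without M21 and 0.21 without M22. Of the beaded filament chains, Col6a1 stood at 2.15, 6.11 and 7.12 FPKM against 3.53, 4.86 and 7.77 FPKM, a difference of 0.01 (SE 0.25). Col6a2 stood at 0.759, 1.62 and 4.40 FPKM against 0.943, 1.79 and 6.05 FPKM (-0.24, SE 0.37). Col7a1, the chain of the anchoring fibrils under epithelia, stood at 0.654, 1.44 and 2.07 FPKM against 0.394, 0.864 and 2.34 FPKM (0.34, SE 0.33, and 0.15 without M31). None of these 5 collagens was near the call, at adjusted p values in limma from 0.656 to 0.988.

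The call on 4 of these genes, Col8a2, Col9a3, Col4a4 and Col19a1, depended on which libraries were compared. With M21, M22, M23 and M31 left out, which was chosen after the values were seen, 3 of 26 tested collagens (all but Col19a1 of the 4) were called lower and none higher, and their standard errors fell to 0.10, 0.11 and 0.13. In the same comparison 813 of 13978 genes were called, 445 lower and 368 higher, so that calls in general became more frequent. Weights for library quality over all 16 libraries also brought Col8a2 past the call, as did leaving out some single libraries. Col19a1 passed only with a single library left out, as given above. The adjusted p of Col8a2 in limma was 0.162 with weights for library quality, 0.214 without M23, 0.242 without M31, 0.285 without M33 and 0.274 without M35. With M37 in place of M40, a column in which lens genes summed to 29478 FPKM and Col4a1 stood at 64.3 FPKM, no collagen was called and only 1 was at an unadjusted p of 0.05 with a fold of 1.2.

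The genes that make, carry, bind and break down collagens were read in 7 lists of 88 genes, of which 68 were tested. None was called, and 1, at the fold of 1.2, had an unadjusted p of 0.05 or under; 52 were lower and 16 higher, with a median log2 difference of -0.13. Beside these stand the 0.147% of all genes that were called, the 7.3% at that fold and p, and the 7175 genes lower and 7133 higher of the 14308. Without M31, 26 of 66 were lower and 40 higher (median 0.06), and without the 4 libraries 47 of 62 were lower. That 1 was Adamts3, an enzyme that cuts the amino-terminal propeptide off fibrillar procollagens. Its level was 9.37 to 15.2 FPKM after spaceflight and 5.84 to 9.23 FPKM in ground controls, with no overlap. How many of all genes tested had no overlap was not counted here. For Adamts3 the log2 difference was 0.42 (SE 0.11, unadjusted p = 0.000954, adjusted p = 0.353 in limma). It passed the call without M31 (0.34, adjusted p = 0.239 in limma) and without the 4 libraries (0.36, adjusted p = 0.29 in limma). Colgalt1, which adds galactose to hydroxylysines, was lower by less than the fold of 1.2 (16.7 ± 1.12 FPKM after spaceflight, SD, n = 9, and 18.5 ± 1.09 FPKM in ground controls, SD, n = 7; unadjusted p = 0.0216, adjusted p = 0.408 in limma).

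Chain modification and folding genes were lower in 14 of 17 tested, with P4hb, a subunit of the prolyl hydroxylase, at 48.2 ± 4.06 and 52.1 ± 3.49 FPKM (SD, n = 9 and 7). Secretion and propeptide genes were split, 4 higher and 4 lower of 8, with Pcolce, an enhancer of procollagen cleavage, at 31.9 ± 15.0 and 43.2 ± 33.4 FPKM. All 4 tested cross-linking genes were below 0, with Loxl1, a lysyl oxidase, at 9.32 ± 4.19 and 12.9 ± 10.6 FPKM. These differences lie within the spread of the groups, and M31 held the highest ground control level of Pcolce (116 FPKM) and Loxl1 (36.5 FPKM); the other 6 ground controls had means of 30.97 ± 9.15 and 9.02 ± 2.52 FPKM (SD), near those after spaceflight. Of 10 tested fibril-binding proteoglycans 6 were lower, and Optc, the opticin of vitreous and ciliary body, ranged over 3.97 to 203 FPKM after spaceflight and 13.3 to 384 FPKM in ground controls. Other basement membrane and matrix genes were lower in 13 of 15, with Sparc at 121 ± 61.8 and 136 ± 107 FPKM. Receptors were lower in 5 of 6, with Itgb1, the common integrin beta chain of collagen receptors, at 15.0 ± 4.33 and 16.3 ± 9.56 FPKM. Among breakdown genes 6 of 8 were lower, with Timp3, an inhibitor of matrix proteases bound to matrix, at 213 ± 90.8 and 297 ± 221 FPKM. Without M31 the ground control means were 95.4 ± 11.3 FPKM for Sparc, 12.8 ± 1.85 FPKM for Itgb1 and 215 ± 36.9 FPKM for Timp3 (SD, n = 6), so that Sparc and Itgb1 had the higher mean after spaceflight. Without it the genes below 0 were 8 of 17 for modification and folding, 4 of 8 for secretion, 2 of 4 for cross-linking, 2 of 9 proteoglycans, 4 of 14 other matrix genes, 2 of 6 receptors and 4 of 8 breakdown genes.

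DNA methylation gives a second reading of the same genes that the choice of members did not use. The method, reduced representation bisulfite sequencing (RRBS), covers CpG-rich fragments. Coverage summed over CpG cytosines was 59572205 to 105298542 per library. This sum counts a read at each CpG cytosine it covers, so it is not a number of reads. Collagen loci, taken as the gene and 1000 bp upstream of it, held 2477 CpGs that each of the 16 libraries covered 10 times or more, and all 43 genes had at least 1. A call asked for 10 points of difference in percent methylation with an adjusted p no higher than 0.05 in a logistic regression scaled by the spread between mice. No CpG was called, in collagens or among all 1071573 CpGs tested (0%). At 10 points and an unadjusted p of at most 0.05, 8 collagen CpGs passed, 6 lower and 2 higher after spaceflight, or 0.323% of those tested, where 0.188% of all CpGs passed (0.107% lower). The difference between these shares, which rests on 8 CpGs, was not tested.

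The collagen CpG with the smallest p lay in a coding exon of Col16a1 (position 130053395 of chromosome 4). It was methylated in 81.0% of reads after spaceflight and 93.1% in ground controls, a difference of -12.2 points with an adjusted p of 0.865, the same as that of every collagen CpG named here. Levels per library overlapped, at 73.5% to 94.7% and 87.8% to 100%. The next 2 by p lay in Col23a1 (position 51342980 of chromosome 11) and Col5a1 (position 27886844 of chromosome 2, 463 bp after the start). The first stood at 92.2% and 98.4%, with 81.8% to 100% and 97.1% to 100% per library, and the second at 2.16% and 0%, with up to 8.16% in a spaceflight library and 0% in every ground control. Among CpGs with 10 points of difference, the next by p after that of Col16a1 were those of Col7a1 and Col27a1, which were chosen after their values were seen. A CpG in an intron of Col7a1 (position 108958721 of chromosome 9) stood at 47.2% and 60.7%, and one in a coding exon of Col27a1 (position 63225479 of chromosome 4) at 86.6% and 97.1%. The CpGs of Col16a1, Col7a1 and Col27a1 were lower after spaceflight, and the fewest reads at them in a library were 10, 19 and 10, beside 24 for Col23a1 and 27 for Col5a1. The other 5 of the 8 lay in Col28a1, Col13a1, Col4a5, Col9a1 and the shared start of Col4a4 and Col4a3 (position 82586611 of chromosome 1, 11.2% and 22.3%, with 5.56% to 45.5% among ground controls).

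Most collagen promoters, the 1000 bp before and after a start where 3 CpGs or more were read, were little methylated. There were 30 of them, of 29 genes, and 19 (63.3%) had a mean level under 10%, against 74.2% of 19580 promoters of all genes. The median was 6.73% for collagens and 0.794% for all promoters. Above 50% were 3 (10%, against 14.7% of all), those of Col8a1 (53.8%), of the inner start of Col6a6 (93.4%) and of the inner start of Col18a1 (72.7%). The outer start of Col18a1 stood at 1.01%, and that of Col6a6 was not among the 30. For the Col8a1 window the 4 CpGs read all lay 652 to 855 bp into the gene, none of them near the start. Across the 29 genes the level of the least methylated promoter read (for Col6a6 its inner start) and the mean FPKM had a Spearman correlation of -0.13, as a description of genes that share libraries.

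Between the groups no promoter was called, in collagens or among all genes (0%). At an unadjusted p of 0.05, 1 of 30 collagen promoters passed, where 5.56% of all promoters did, and 17 were lower and 13 higher. The largest difference was that of Col6a5, with 37.9 ± 4.92% after spaceflight and 43.0 ± 3.16% in ground controls (SD, n = 8 each) and an adjusted p of 0.817 in the logistic regression across all promoters. That gene had a mean of 0.0265 FPKM. Col4a6 (35.2 ± 5.04% and 39.8 ± 8.10%) and Col8a1 (55.1 ± 7.35% and 52.5 ± 4.73%) followed, each with groups that overlap within their SD. The lowest coverage per library behind these 3 promoters, summed over their CpGs, was 600, 47 and 63.

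Col8a2 and Col2a1 show how the level changes with distance from the start. In the Col8a2 promoter (8.68 ± 0.933% after spaceflight and 7.71 ± 1.73% in ground controls, SD, n = 8 each) the 16 CpGs from -2 to 90 bp had medians of 0.406% and 0.504%. The 10 from 120 to 242 bp had 5.92% and 4.18%, and the 5 from 282 to 380 bp had 29.5% and 25.7%. Levels thus rose over these 3 windows in both groups. The CpG at 918 bp, the farthest one read in this promoter, was lower again, at 15.4% and 18.8%. Of the CpGs in capitals in the Col2a1 stretch printed above, the 5 from -164 to -113 bp had medians of 21.0% and 21.6%, and the 8 from -57 to 20 bp, which run past its end, 1.07% and 1.56%. In Col9a3 the 29 CpGs from the start to 347 bp had medians of 25.1% and 22.2%, at a range of 3.76% to 51.6% and 3.47% to 54.7%, without such an order.

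**Figure D5:**
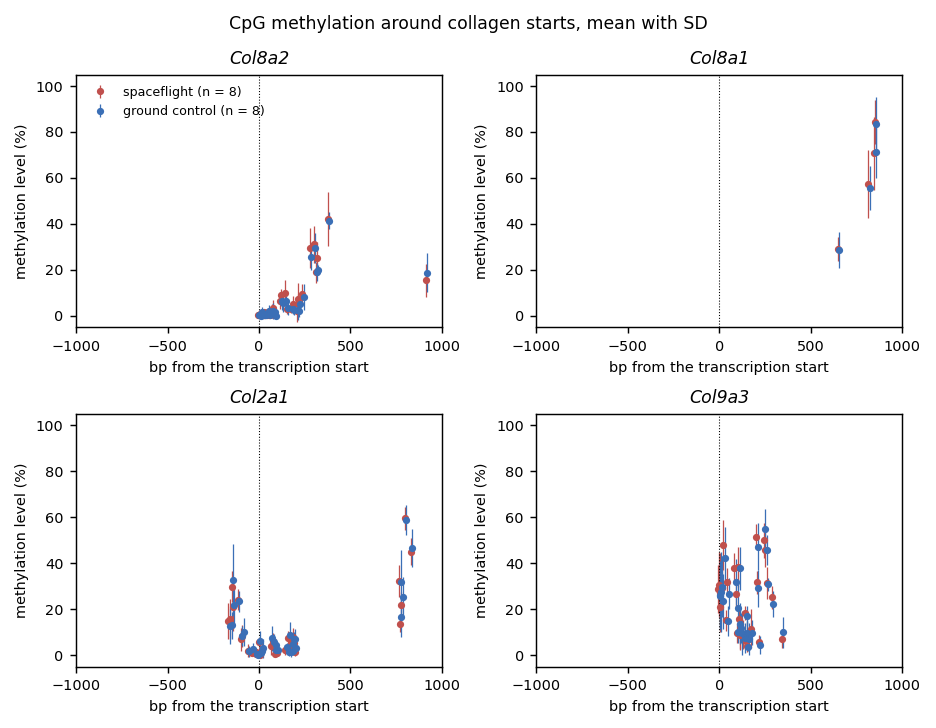
Methylation level (%) of each CpG read 10 times or more in every library against its distance from the start (bp) for Col8a2, Col8a1, Col2a1 and Col9a3, as mean and SD over 8 spaceflight and 8 ground control libraries. The points of both groups lie on each other, near 0 at the starts of Col8a2 and Col2a1 and up to 54.7% in Col9a3.

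Inside the genes methylation was high. Over the 39 collagens with at least 10 CpGs read outside their promoters, the median level was 82.5%, the highest that of Col14a1 (94.2%). Col8a2 was the lowest of these at 28.2%, with 27.9 ± 0.54% after spaceflight and 28.4 ± 0.58% in ground controls (SD, n = 8 each), followed by Col2a1 at 57.4%. Col8a2 was thus the least methylated of these genes and, by its mean FPKM, the third most abundant collagen. Col8a1 and Col18a1, which had the higher means, stood at 92.3% and 86.1% inside the gene.

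Several members are neighbours in the genome and do not give independent readings. Col4a1 and Col4a2 on chromosome 8, and Col4a3 and Col4a4 on chromosome 1, lie head to head with gene models that overlap by 85 and 114 bp, so each pair was given the same promoter value here. Col4a5 and Col4a6 on chromosome X lie head to head 1274 bp apart. Col9a1 and Col19a1 end towards each other 4944 bp apart, and their differences after spaceflight were -0.08 and 0.40. Col3a1 and Col5a2, Col6a1 and Col6a2, and Col6a4, Col6a5 and Col6a6 also lie next to each other.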

How the data were processed

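RNA of 16 retinas (9 spaceflight, 7 ground control) and DNA of 16 (8 and 8) were compared. For RNA, the authors trimmed reads with Trimmomatic, aligned them with TopHat2 to GRCm38 and deposited FPKM from Cufflinks for 26630 entries; these carry no read numbers, so the depth behind a value is unknown. For DNA, the authors used MspI digestion, Trim Galore 0.4.5 and Bismark, and the deposited tables give a read count (coverage) and the percent of methylated reads for each CpG cytosine, with strands apart. For RNA, 1 column of the table was not used here and the column of M37 was read only in an alternative. The methods name 1 sequencer for the DNA libraries and more than 1 for RNA, and which of these read each RNA library is not given in the sources used here.

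Here log2(FPKM + 0.1) of genes with a mean of at least 1 FPKM was compared with limma 3.58.1 (R 4.3.3, mean-variance trend), and p values were adjusted by Benjamini-Hochberg over all 14308 genes; fold changes on this scale understate those of low genes. The study's Cuffdiff test needs reads, so its thresholds were kept with limma. Strands of each CpG were summed, methylated reads were rebuilt from percent and coverage, and CpGs covered 10 times or more in each of the 16 libraries were fitted by logistic regression with an overdispersion factor not below 1 and an F-test (numpy 2.4.6, scipy 1.17.1). Differences at a CpG are between pooled percentages. Both tests were checked on simulated data: for the RNA comparison (14308 genes) 91% of 100 genes changed by a log2 of 1 and 97% of 100 changed by 2 were called beside 80 unchanged genes, and for the methylation comparison (2370 CpGs) 99.5% of 200 CpGs changed by 30 points were called beside 4 unchanged CpGs. Gene models and promoter sequences are those of RefSeq on GRCm38.p6; of the 43 genes, 35 had an entry in the promoter table.

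The members and the lists of classes, pathway genes and markers were chosen with earlier results of these data known. Named collagens are the markers Col8a2, Col9a3, Col4a4 and Col1a1, the 2 of each class with the highest mean, and those at an unadjusted p of 0.05; named pathway genes are those at that p and the highest of each list, and named CpGs are the 3 with the smallest p and those at an unadjusted p of 0.05 with 10 points of difference, and named promoters the 3 with the largest difference. Col26a1 is listed under the symbol Emid2 and is no member by the rule, and Col21a1 was not analysed here. One rod gene of the marker list is not reported here. The p values measure the spread between single mice of 1 flight.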

Additional observations from a re-analysis of the deposited data

Results flagged for a closer look

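Library values far from the rest of their group were looked for in the 29 tested collagens on the log2 scale, with Dixon's test of the gap to the nearest value over the range of the group. Chance flags about 1 in 20 groups, and 15 of 58 passed, all of them in M22, M23 or M31. In the ground control M31 these were Col4a1 at 111 FPKM (next highest 8.82), Col4a2 at 76.1 FPKM (12.7), Col4a3 at 41.9 FPKM (16.7), Col4a4 at 19.0 FPKM (8.52), Col18a1 at 149 FPKM (36.8), Col8a1 at 95.3 FPKM (36.6), Col9a3 at 32.7 FPKM (14.9) and Col11a1 at 6.07 FPKM (1.38). In the spaceflight library M22 these were Col4a1 at 85.1 FPKM (next highest 9.62), Col4a2 at 54.7 FPKM (9.20), Col9a1 at 15.8 FPKM (7.65) and Col2a1 at 11.1 FPKM (7.73). In the spaceflight library M23 these were Col8a2 at 36.2 FPKM (next highest 19.2), Col8a1 at 68.3 FPKM (31.5) and Col9a3 at 23.4 FPKM (11.5). Col4a1 and Col4a2 were thus far out in M22 and M31, both high in lens, ciliary epithelium and fibroblast genes. Col8a1 was far out in M23 and M31, both high in pigment epithelium genes. The part of these tissues in the values was not tested.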

How the results depend on the processing

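Of 706 values under alternative settings for 29 results, 650 stayed on the same side of the threshold or within 1 SD of the value reported. The 160 values for class sums all stayed within 1 SD, yet 12 changed sign: with each library left out the log2 difference ranged from -1.08 to 0.29 for basement membrane, -0.31 to 0.20 for beaded filament and -0.28 to 0.15 for transmembrane collagens, above 0 without M31, and from -0.59 to 0.77 for fibrillar collagens. The number of collagens called, 0 over all 16 libraries, was 1 with weights for library quality, 3 without M21, M22, M23 and M31, and 0 to 2 with each library left out (1 without M23 or M33, 2 without M31 or M35). It stayed 0, with 1 or 2 collagens at the fold of 1.2 and an unadjusted p of 0.05, under pseudocounts of 0.01 and 1, a filter of 1 FPKM in all libraries or none, median-of-ratios scaling, M21 as ground control, M37 for M40, eye as a covariate and no variance trend. Pathway genes called, also 0, were 1 with the weights, 2 without the 4 libraries and 0 to 1 with each library left out (1 without M31, M33 or M35). Over all genes the 21 calls became 1366 without M31, 478 without M33, 521 without M35, 329 with the weights, 24 with the stricter filter, 0 without M21, M24, M25, M26, M27, M30 or M32, 1 without M34 or M40, and 0 with M21 as ground control, M37 for M40 or eye as a covariate; the cause was not tested. Log2 differences that changed sign were those of Col1a1 (-0.58 with M21 as ground control, -0.076 with M37 for M40, -0.14 with eye as a covariate, -0.15 without the 4 libraries, -0.20 to 0.68 with each library left out), Col1a2 (-0.55, -0.12, -0.14 and -0.11 in the same order, -0.22 to 0.57), Col6a1 (-0.082 with M21 as ground control, -0.049 with eye, -0.066 to 0.16), Col17a1 (-0.47 with M21 as ground control, -0.35 with the weights) and Col2a1 (0.017 with the weights, -0.17 to 0.029). With each library left out, Col4a1 ranged from -0.88 to 0.18 and Col6a2 from -0.42 to 0.011, both above 0 without M31 alone; Col8a2 ranged from -0.84 to -0.56. Collagen CpGs and promoters called stayed at 0 under coverage minimums of 5 and 20, without the overdispersion factor (145 calls among all CpGs), with promoters of 200 bp and with each library left out. For promoters the limit of 10 points fixed this with or without that factor, since the largest difference was 5.31 points. Without the factor 7 of 30 collagen promoters were at an unadjusted p of 0.05 in the logistic regression, beside 1 with it. At an unadjusted p of 0.05 and 10 points, 8 CpGs passed at the minimum of 10 reads, 13 at 5, 1 at 20 and 7 to 11 with each library left out. No paired analysis was possible because the replicate numbers are given in accession order and pair no mice across groups. FPKM without read numbers limit what can be said of the 14 low members.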
